A study of Mus musculus with 4 samples.

Results

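S phase is the part of the cell cycle in which a cell copies its DNA, and 39 genes that serve it were followed here: the E cyclins, cyclin A2 and E2F factors that drive entry into S phase, and the genes of origin licensing, helicase activation, the replication fork, nucleotide synthesis and chromatin copying. They were taken by symbol from a list of genes with these roles, and the rule itself used no measured value. All 39 were among the 15768 genes of the deposited table, and all 39 were among the 12222 genes tested. RNA came from JoMa1.3, a line of mouse neural crest cells that was immortalised with a switchable form of MYC, grown in a medium with EGF, fibroblast growth factor and chick embryo extract. The control group received a pool of non-targeting siRNAs and is labelled WT. The other group, labelled Lkb1 KD, received pooled siRNAs directed at Stk11, which encodes the kinase LKB1. Both were at 60 nM and were taken after 72 h, and the study asked what changes when Lkb1 is lost from these progenitors. Each group held 2 libraries, and each batch named in the labels, 1 and 2, held 1 library of either siRNA.

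A cell licenses its origins in G1, when ORC, CDC6 and CDT1 load the MCM helicase onto DNA. In S phase CDC45 and GINS switch that helicase on and polymerases copy both strands, with PCNA as their sliding clamp. E2F transcription factors, held back by RB until cyclin D and cyclin E kinases act, turn on most of these genes together. Neural crest progenitors divide, and levels of these transcripts are widely read as a sign of how many cells of a culture are in or near S phase. In RNA from whole cultures, fewer cells in S phase and less RNA per cell cannot be told apart.

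The samples were checked on a few values. The counts of a library totalled 17426719 to 19324675. Stk11 (gene ID 20869) was at 52.7 and 52.1 FPKM (fragments scaled to transcript length and library size) in the controls and at 36.3 and 36.9 FPKM after Lkb1 siRNA. It fell by 31.7% (edgeR adjusted p = 0.0378), so the knockdown was partial. The call is lost with library size alone in place of TMM (adjusted p = 0.0633) and in limma, where the pseudocount of 1 gave an adjusted p of 0.178 and that of 0.1 gave 0.162, at a log2 fold change of -0.52, -0.51 and -0.52. Of 14 neural crest markers, 11 were in the table, with a summed level of between 169.5 and 179.7 FPKM per library, led by Snai2, Tfap2b and Twist1. Ednrb was at 0 in 3 of the 4 libraries, Ngfr was under 1 FPKM in each library, and Sox10, Foxd3 and Msx2 are not analysed here. The glial markers Gfap and Mbp were each under 1 FPKM. Smooth muscle and fibroblast markers summed to between 837.9 and 1130 FPKM per library, nearly all of it from Col1a1, Acta2, Tagln and Dcn, while Cnn1 and Myh11 were at or near 0.

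Because E2F acts at the promoters of this pathway, the promoter windows of the members were searched for 4 letter strings of the E2F type: TTTGGCGC, TTTCCCGC, TTTCGCGC and TTTGCCGC, on either strand, with overlaps allowed. RefSeq windows on GRCm38.p6, from 250 bases before to 50 bases after a start, were at hand for 32 members; Pole, Gins4, Gins1, Ccne2, Mcm4, Gins2 and Ccna2 had none. Such a string stood in the window of 14 of the 32 members (43.8%). The share was 4.87% of the 9761 tested genes with a window, and 2.26% of all 32851 windows. The 14 were Orc1, Cdc6, Cdt1, Mcm3, Mcm5, Mcm6, Mcm7, Gins3, Pola1, Rfc3, Lig1, Clspn, Uhrf1 and Dtl. Of these, 7 are printed below from 5′ to 3′ on the gene's strand, 60 bases each and all before the start. Capitals mark the E2F-type letters. Each stretch was printed because it holds a searched string, so the likeness of the capitals follows from the search.

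Mcm5, chr8:75109330-75109389, plus strand: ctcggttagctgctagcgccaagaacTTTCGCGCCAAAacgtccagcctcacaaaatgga
Mcm6, chr1:128359782-128359841, minus strand: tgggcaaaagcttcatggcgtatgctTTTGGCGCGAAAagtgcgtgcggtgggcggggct
Orc1, chr4:108579394-108579453, plus strand: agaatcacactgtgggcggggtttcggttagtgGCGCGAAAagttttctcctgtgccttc
Uhrf1, chr17:56304102-56304161, plus strand: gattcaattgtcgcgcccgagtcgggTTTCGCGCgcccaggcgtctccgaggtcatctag
Cdc6, chr11:98907987-98908046, plus strand: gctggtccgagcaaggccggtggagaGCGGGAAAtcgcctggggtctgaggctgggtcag
Pola1, chrX:93632260-93632319, minus strand: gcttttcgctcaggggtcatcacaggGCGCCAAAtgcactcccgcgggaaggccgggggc
Gins3, chr8:95633492-95633551, plus strand: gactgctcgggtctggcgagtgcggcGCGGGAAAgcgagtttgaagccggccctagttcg

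In Mcm5 and Mcm6 a string on each strand overlaps the other, which gives the longer run of capitals. In Orc1, Cdc6, Pola1 and Gins3 the string lies on the opposite strand, so its reverse complement (the pairing letters in reverse order) is what is read here. Of other motifs linked to cell cycle promoters, CCAAT, on either strand, stood in 22 of the 32 members (68.8%) and in 44% of tested genes with a window. The GC box GGGCGG stood in 24 (75% against 69.8%), and the string TTTGAA, known as the CHR of G2 and mitosis genes, in 5 (15.6% against 14.4%). A match of letters is a description of the sequence and shows no binding.

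After Lkb1 siRNA 0 of the 39 passed as higher and 0 as lower, where 4 of all 12222 genes tested (0.0327%) passed as higher and 6 (0.0491%) as lower (edgeR's quasi-likelihood test, Benjamini-Hochberg adjusted p under 0.05). Without the block DESeq2 and limma also called 0 of the 39. An unadjusted p under 0.05 in edgeR was found for 4 of the 39 (10.3%) and for 11.1% of all genes tested. That fit leaves the batch out. In the fit with both siRNA and batch as terms, the siRNA gave 5 higher members and 1 lower (1660 of all genes passed), while 13 of the 39 were lower in batch 2 and 0 were higher. In that comparison 809 of all genes (6.62%) were lower and 770 (6.30%) were higher. The median log2 fold change of the members was 0.01 for the siRNA, beside 0.00 over all genes, and -0.11 for the batch, beside 0.01 over all genes. A log2 fold change of -0.11 is a small one: the 13 genes ranged from -0.13 to -0.31.

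**Figure D1:**
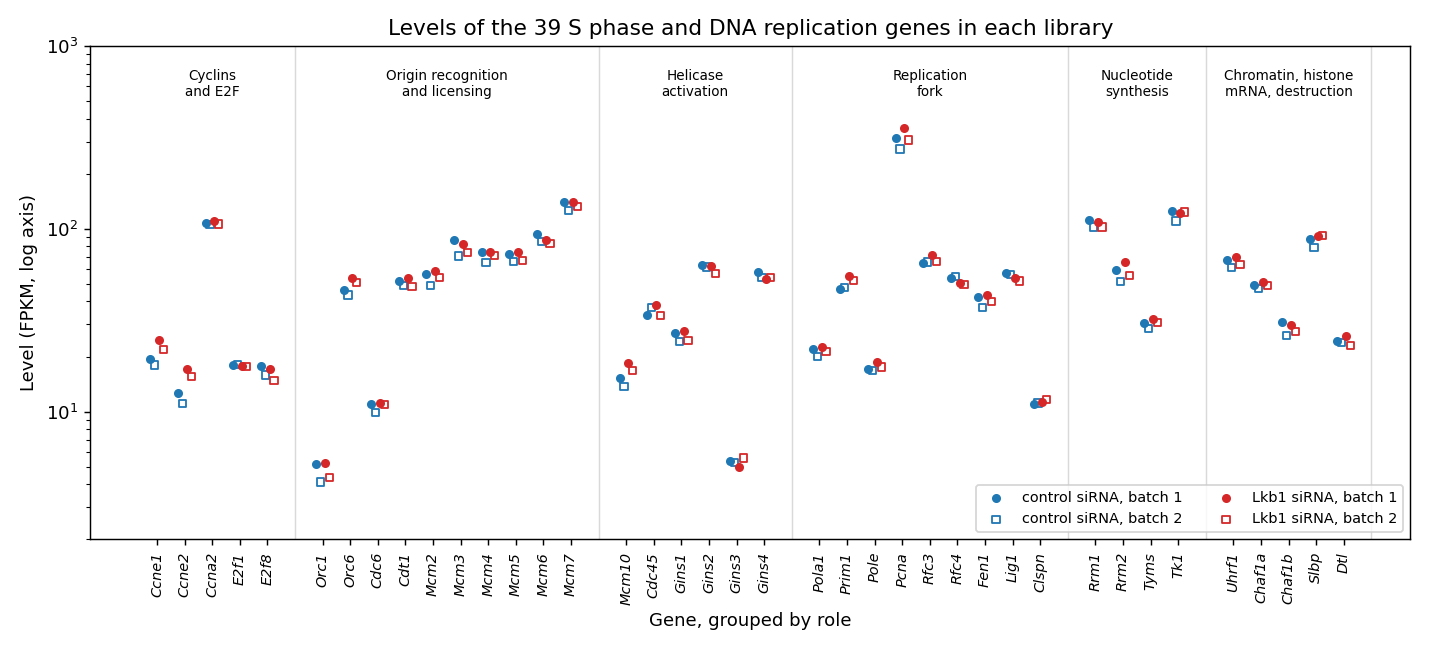
Level of each of the 39 genes in each of the 4 libraries, in FPKM on a log axis, with genes grouped by role. Circles are batch 1 and squares batch 2, blue is control siRNA and red is Lkb1 siRNA; Pcna sits highest, between 273 and 354 FPKM, and Orc1 and Gins3 lowest, and the 4 libraries of a gene lie close together.

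The cyclins and E2F factors come first in the pathway. Ccne1 (gene ID 12447) and Ccne2 (12448) encode cyclins E1 and E2, the partners of CDK2 at the start of S phase. In the order control batch 1, control batch 2, Lkb1 siRNA batch 1, Lkb1 siRNA batch 2, which is kept for all later lists, Ccne2 was at 12.6, 11.04, 17.1 and 15.5 FPKM. Both Lkb1 siRNA libraries lay above both control libraries, and in each siRNA group batch 2 was the lower one. In counts Ccne2 was at 32.6 ± 3.63 CPM in control and 43.8 ± 3.07 CPM in Lkb1 siRNA libraries (SD, n = 2 per group; CPM is the count scaled to library size with TMM). Its log2 fold change was 0.42 (SE 0.101, 95% interval 0.20 to 0.65, edgeR adjusted p = 0.196), the largest of the 39, and the only one whose interval reached beyond 0.5 in either direction. It did not pass, but with batch as a replicate block it did (edgeR adjusted p = 2.71e-07), and it also passed without the batch 1 control library (log2 fold change 0.54, edgeR adjusted p = 0.00636).

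Ccne1 was at 19.5, 17.95, 24.7 and 21.9 FPKM, again with no overlap between the siRNA groups. Its counts were 31.6 ± 2.23 CPM in control and 38.2 ± 3.32 CPM in Lkb1 siRNA libraries (SD, n = 2 per group), and its log2 fold change was 0.28 (its SE was 0.0974, edgeR adjusted p = 0.358, or 0.00331 with the replicate block). Both E cyclins thus had the same order of the 4 libraries, and both passed with the block and not without it. Ccna2, for cyclin A2, which acts through S phase and into mitosis, was much more abundant and almost level, at 107, 105, 111 and 106 FPKM. The siRNA log2 fold change of Ccna2 was 0.00 (95% interval -0.15 to 0.14).

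E2f1, an activator of S phase genes, was at 17.9, 18.01, 17.8 and 17.6 FPKM, almost level. E2f8, a repressor that E2F itself induces and that lowers these genes again later in S phase, was at 17.7, 15.9, 17.1 and 14.8 FPKM. E2f8 was lower in batch 2 by a log2 fold change of -0.21 (its SE was 0.0635, edgeR adjusted p = 0.0102), and it was the 1 gene of these 5 that passed between the batches. Its siRNA log2 fold change was -0.13, within the spread of the libraries (edgeR adjusted p = 0.675).

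Of the 10 genes of origin recognition and licensing, 6 were lower in batch 2, the largest number in any role: Orc1, Mcm2, Mcm3, Mcm4, Mcm5 and Mcm7. All 10 had a log2 fold change below 0, from -0.09 for Orc6 to -0.31 for Orc1. The MCM proteins 2 to 7 form the ring of the replicative helicase. Mcm3 (gene ID 17215) was at 87.0, 70.9, 82.4 and 74.1 FPKM, so that both batch 2 libraries lay below both batch 1 libraries, and the control pair differed more than the Lkb1 siRNA pair. Its log2 fold change between batches was -0.24 (its SE was 0.0485, edgeR adjusted p = 4.0e-05). Mcm2 (17216) was at 56.6, 49.1, 58.8 and 54.0 FPKM, a log2 fold change between batches of -0.18 (its SE was 0.0487, edgeR adjusted p = 0.00382). Mcm5 (17218), whose promoter string is shown above, was at 72.3, 66.0, 74.6 and 67.2 FPKM.

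In Mcm5 the siRNA libraries of a batch were almost the same, while the batches stood apart by the same step in both siRNAs. Its log2 fold change was 0.00 for the siRNA (95% interval -0.19 to 0.19) and -0.16 for the batch (edgeR adjusted p = 0.0134). Mcm7 was the most abundant of the ring, at 141, 126, 140 and 132 FPKM, with a batch log2 fold change of -0.14 (edgeR adjusted p = 0.0343). Mcm4 was at 74.6, 65.4, 74.5 and 71.2 FPKM, with the same log2 fold change (edgeR adjusted p = 0.0286). Mcm6, at 93.2, 85.0, 86.5 and 83.2 FPKM, was the ring gene that did not pass, with a batch log2 fold change of -0.11 (edgeR adjusted p = 0.102). The 6 ring genes therefore lay within a narrow band, from 49.1 to 141 FPKM, with their batch differences between -0.11 and -0.24.

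The loaders of that ring were more uneven in level. Orc1 (gene ID 18392), the largest subunit of the origin recognition complex, was among the lowest of the 39, at 5.14, 4.12, 5.22 and 4.35 FPKM, and had the largest batch log2 fold change, -0.31 (its SE was 0.111, edgeR adjusted p = 0.0465). Both siRNA groups repeated this step, and the siRNA itself gave 0.01 (95% interval -0.34 to 0.36). With 217 to 262 counts per library, Orc1 also had the widest siRNA interval of the 39. Orc6 (56452), the smallest ORC subunit, was far more abundant, at 46.0, 43.4, 53.7 and 50.8 FPKM. The siRNA groups of Orc6 did not overlap, at 60.8 ± 3.37 CPM in control and 69.3 ± 2.5 CPM in Lkb1 siRNA libraries (SD, n = 2 per group), a log2 fold change of 0.19 (its SE was 0.0746, edgeR adjusted p = 0.395, or 0.0168 with the replicate block). Cdc6 was at 10.99, 9.88, 11.2 and 10.9 FPKM and Cdt1 at 51.6, 48.9, 53.9 and 48.1 FPKM. Cdc6 and Cdt1 bring the ring to the DNA, and neither passed in either comparison.

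Of the 6 genes of helicase activation, 0 passed between the batches or between the siRNAs. Mcm10 (gene ID 70024), which helps to start the loaded helicase, was at 15.4, 13.7, 18.5 and 16.8 FPKM, in the same order of libraries as the E cyclins. It was at 47.3 ± 4.35 CPM in control and 55.9 ± 3.83 CPM in Lkb1 siRNA libraries (SD, n = 2 per group), a log2 fold change of 0.24 (its SE was 0.0903, edgeR adjusted p = 0.373, or 0.00301 with the replicate block). Between the batches Mcm10 had a log2 fold change of -0.16 (edgeR adjusted p = 0.0717). Cdc45, at 33.7, 37.0, 38.3 and 33.4 FPKM, crossed over: the siRNA log2 difference was 0.14 in batch 1 and -0.18 in batch 2.

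The 4 GINS subunits are present in equal numbers in their complex, while their transcripts differed widely in level. Gins2 was at 63.7, 61.8, 62.8 and 56.8 FPKM and Gins4 at 58.2, 54.1, 53.3 and 54.1 FPKM. Gins1 was between 24.1 and 27.4 FPKM, and Gins3 (gene ID 78833) was at 5.37, 5.27, 4.97 and 5.57 FPKM, so levels per length ran from about 5 to over 50 FPKM within 1 complex. Gins3 and Clspn were the members whose batch log2 fold change was above 0, at 0.05 and 0.00. The promoter window of Gins3 holds the E2F-type string shown above, as do the windows of Mcm5 and Orc1, which were lower in batch 2.

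At the replication fork, 2 of 9 genes were lower in batch 2. Pcna (gene ID 18538), the sliding clamp that keeps polymerases on the DNA, was the most abundant of the 39, at 312, 273, 354 and 306 FPKM. Batch 2 was lower within each siRNA, and the step was nearly equal in both: a log2 difference of -0.22 in control and -0.21 in Lkb1 siRNA cultures. The fitted batch log2 fold change of Pcna was -0.22 (its SE was 0.0483, edgeR adjusted p = 0.000286), and DESeq2 also called it (adjusted p = 0.0414). It did not pass in limma (adjusted p = 0.0605 and 0.0543 with pseudocounts of 1 and 0.1). Nor did it pass in edgeR without the siRNA term (adjusted p = 0.421). For the siRNA, Pcna was at 286.9 ± 30.9 CPM in control and 314.3 ± 32.9 CPM in Lkb1 siRNA libraries (SD, n = 2 per group), with overlap between the groups. That log2 fold change was 0.13 (its SE was 0.0955, edgeR adjusted p = 0.641, or 0.0485 with the replicate block).

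Fen1, the nuclease that trims Okazaki fragments, was the other fork gene that passed, at 42.3, 37.3, 43.5 and 39.8 FPKM, a batch log2 fold change of -0.16 (its SE was 0.0554, edgeR adjusted p = 0.0317). Lig1 (gene ID 16881), the ligase that joins those fragments, was at 57.5, 56.4, 53.9 and 51.7 FPKM. Here the Lkb1 siRNA libraries were both below the controls, at 146.2 ± 4.65 against 161.7 ± 4.32 CPM (SD, n = 2 per group), a log2 fold change of -0.15 (its SE was 0.0671, edgeR adjusted p = 0.459, or 0.0281 with the replicate block). So the clamp and the ligase, which act at the same step, had siRNA values of opposite sign; the groups overlapped in Pcna and not in Lig1, and neither gene passed without the block. Pola1 and Prim1, of the primase complex that starts each fragment, were at 20.04 to 22.5 FPKM and at 47.0 to 55.2 FPKM, and Pole, the leading strand polymerase, at 16.7 to 18.6 FPKM.

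Prim1 had no overlap between siRNA groups, higher with Lkb1 siRNA, at a log2 fold change of 0.14 (edgeR adjusted p = 0.505). The clamp loader subunits Rfc3 and Rfc4 were at 64.6 to 72.3 FPKM and 49.7 to 54.7 FPKM, and Rfc4 was lower with Lkb1 siRNA in both batches, at -0.15 (edgeR adjusted p = 0.478). Clspn, for claspin, which carries the checkpoint signal from stalled forks, was at 11.03, 11.1, 11.3 and 11.7 FPKM. Its libraries lay close together, with log2 fold changes of 0.01 for the siRNA and 0.00 for the batch.

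Of the 4 genes of nucleotide synthesis, 2 were lower in batch 2: Rrm1 and Rrm2, the subunits of ribonucleotide reductase, which makes the building blocks of DNA. Rrm2 (gene ID 20135), the subunit whose amount is tied to S phase, was at 59.2, 51.5, 66.0 and 55.6 FPKM, with a batch log2 fold change of -0.24 (its SE was 0.0513, edgeR adjusted p = 0.000129). Rrm1 (20133), which is more stable through the cycle, was at 112, 102, 109 and 102 FPKM, with a batch log2 fold change of -0.13 (its SE was 0.0478, edgeR adjusted p = 0.0481). In both, batch 2 was lower within each siRNA. Tyms, thymidylate synthase, was at 30.7, 28.3, 32.1 and 30.7 FPKM and did not pass (-0.11, edgeR adjusted p = 0.171).

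Tk1, the thymidine salvage kinase, was the member whose siRNA difference varied most between the batches. In counts it was at 137.6, 109.6, 114.4 and 131.0 CPM, so that the siRNA log2 difference was -0.27 in batch 1 and 0.26 in batch 2. On the FPKM scale, which divides by the estimated transcript length, the values were 125, 110.2, 122 and 123. The authors' transcript estimates differ in the same libraries: the predicted transcript XM_006533149 took 0%, 14.2%, 20.3% and 0.292% of the Tk1 total. The 2 libraries with more of that transcript were those with fewer counts.

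Among the genes of chromatin copying and S phase clearance, 2 of 5 were lower in batch 2. Uhrf1 (gene ID 18140), which guides DNA methylation onto new strands, was at 67.2, 61.4, 70.5 and 63.7 FPKM, a batch log2 fold change of -0.15 (its SE was 0.0485, edgeR adjusted p = 0.0197). Chaf1b (110749), a subunit of the chromatin assembly factor that places histones behind the fork, was at 30.9, 26.04, 29.7 and 27.4 FPKM, a batch log2 fold change of -0.20 (its SE was 0.0664, edgeR adjusted p = 0.0257). Its partner Chaf1a, at 46.9 to 50.8 FPKM, did not pass (-0.08, edgeR adjusted p = 0.281). Slbp, which binds the stem-loop of histone mRNAs, was at 78.7 to 91.7 FPKM, and Dtl, which directs CDT1 to destruction, at 23.0 to 25.9 FPKM.

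**Figure D2:**
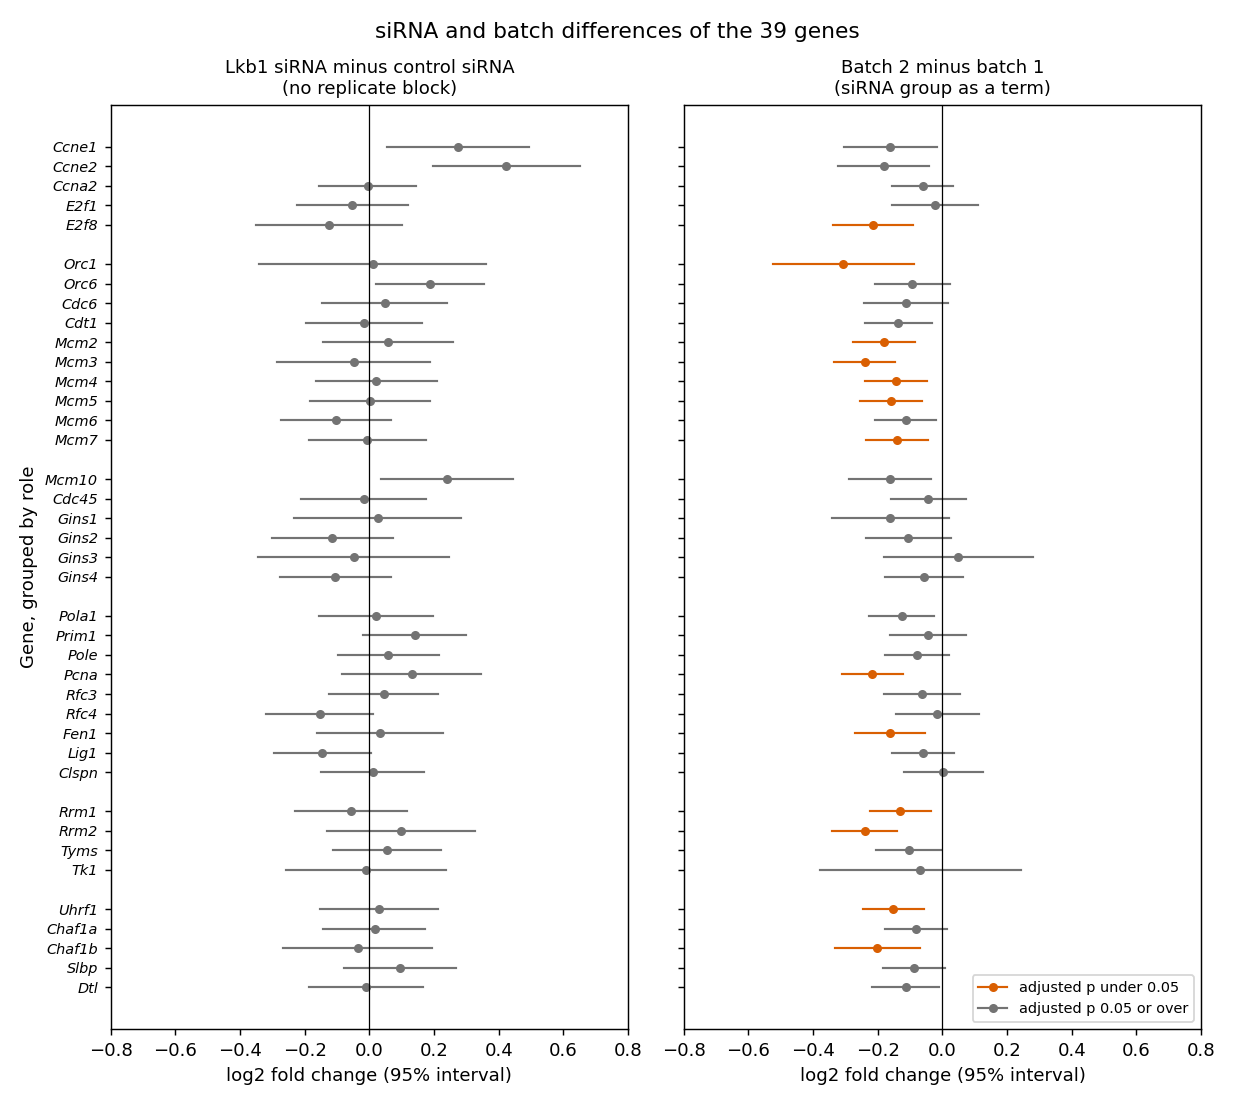
Log2 fold change of each of the 39 genes with its 95% interval, for Lkb1 siRNA minus control siRNA on the left (no replicate block) and for batch 2 minus batch 1 on the right (siRNA as a term); orange marks an adjusted p under 0.05. The left panel has 0 orange points and its points lie on both sides of 0, while the right panel has 13 orange points, all below 0.

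Taken over the list, the siRNA differences went both ways. Of the 39, 22 had a log2 fold change above 0 and 17 below 0 (50.2% of all genes were above 0). With library size alone in place of TMM, 28 were above 0, and with limma on FPKM 29 were. Those scalings also moved the median of all genes, from 0.000 to 0.033 and, with limma on log2(FPKM + 1), to 0.030, about as much as that of the members, from 0.011 to 0.044 and 0.049. The 4 genes with an unadjusted p under 0.05, a share no higher than that of all genes, were Ccne1, Ccne2, Orc6 and Mcm10. The siRNA groups did not overlap in 6 members that were higher (Ccne1, Ccne2, Orc6, Mcm10, Prim1 and Slbp) and 5 that were lower (E2f1, Gins2, Gins4, Rfc4 and Lig1), where the shares over all genes were 21.2% and 21.4%. Within batch 1 the median of the members was -0.01 and within batch 2 it was 0.05, and 13 members were higher in both batches (33.8% of all genes were) and 9 lower in both (33.4%). The 95% interval lay within 0.5 of 0 for 38 of the 39, with Ccne2 as the exception.

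With batch as a replicate block, 5 members were higher after Lkb1 siRNA (Ccne1, Ccne2, Orc6, Mcm10 and Pcna) and 1 was lower (Lig1), where 806 of all genes (6.59%) were higher and 854 (6.99%) lower. The fit with the block is the same model that gave the 13 batch calls. It has 1 residual degree of freedom. Like siRNA differences in both batches were not needed for a call. The marker Col1a2 passed with the block (edgeR adjusted p = 0.000825) at log2 differences of -0.04 in batch 1 and -0.37 in batch 2. DESeq2 with the same block called 0 of the 36 members that received an adjusted p. In all 6 the siRNA difference had the same sign and nearly the same size in both batches.

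**Figure D3:**
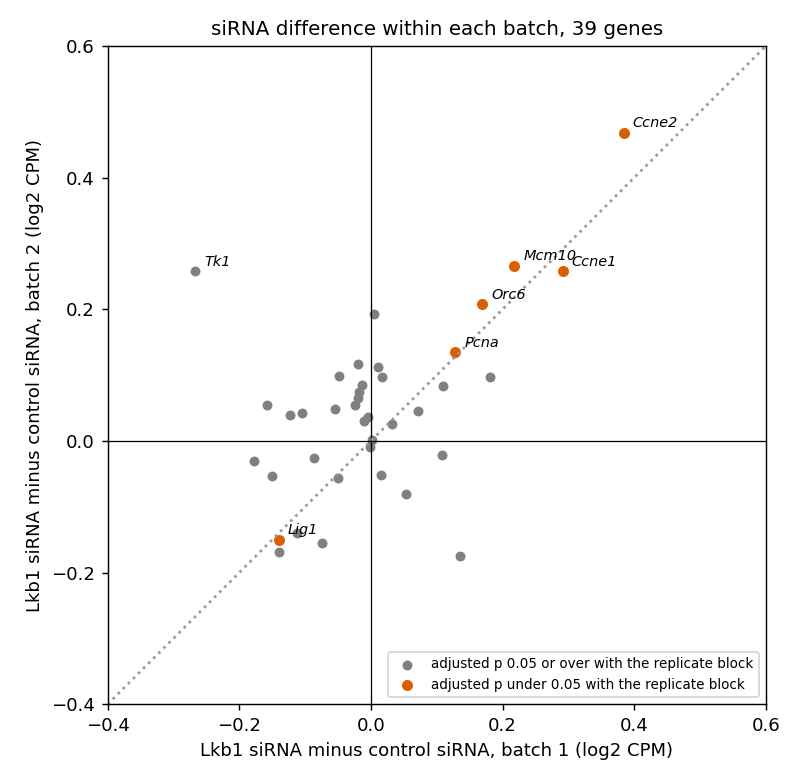
Log2 difference between Lkb1 and control siRNA within batch 1 (horizontal) and within batch 2 (vertical) for the 39 genes, in log2 CPM, with a dotted line where both are equal; orange marks an adjusted p under 0.05 with the replicate block. The 6 orange genes lie near the line, Ccne2 farthest out at 0.38 and 0.47, and Tk1 lies far off it at -0.27 and 0.26.

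The batch differences pointed mostly the same way. Of the 39, 37 had a log2 fold change below 0 (36 with library size alone, 38 with DESeq2's size factors in edgeR), where 48.4% of all genes did, and 32 were lower in batch 2 within both siRNAs, where 32.9% of all genes were. In 23 members both batch 2 libraries lay below both batch 1 libraries, where 20.7% of all genes did, and in 0 members did they lie above. The median was -0.16 within control and -0.10 within Lkb1 siRNA cultures. Summed over the 39 genes, the level was 2230 and 2044 FPKM in control and 2312 and 2145 FPKM in Lkb1 siRNA libraries, in the order batch 1 and batch 2. Without the siRNA as a term, 0 of the 39 passed and 0 of all genes did; DESeq2 called only Pcna, with 18 members given no adjusted p, and limma called 0. Without any 1 of the 4 libraries, in fits that also had no siRNA term, the median stayed between -0.10 and -0.16.

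The E2F-type string was about as common in members that differed between batches as in the others. It stood in 5 of the 12 lower members that have a window (Orc1, Mcm3, Mcm5, Mcm7 and Uhrf1) and in 9 of the other 20, and Pcna and Rrm2, with 2 of the lowest adjusted p between batches, had none in this window. In 7 members (Cdc45, Dtl, Fen1, Lig1, Mcm7, Orc1 and Tk1) the window overlaps that of a gene on the opposite strand. Whether the counting used strand is not given in the sources used here. Overlap of the transcripts themselves was not examined, so it is not known whether any reads could belong to either gene.

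The rest of the pathway was described from 3 further lists. Of 43 other replication genes, 0 passed for the siRNA, and 4 were lower and 0 higher in batch 2: Topbp1, which activates the checkpoint kinase and helps start forks (-0.21, edgeR adjusted p = 0.000653), the histone chaperones Nasp (-0.20, edgeR adjusted p = 0.00135) and Asf1b (-0.19, edgeR adjusted p = 0.0374), and Orc2 (-0.20, edgeR adjusted p = 0.0236). Their batch median was -0.10, close to that of the 39, with 38 of the 43 below 0. With the replicate block, 6 of the 43 were higher after Lkb1 siRNA and 1, Rpa1, was lower. Cdc7, the kinase that fires licensed origins, was at 11.97, 13.4, 17.7 and 16.3 FPKM, a log2 fold change of 0.40 (its SE was 0.0886, edgeR adjusted p = 0.182, or 1.56e-06 with the replicate block). Like Ccne2, Cdc7 had no overlap between the siRNA groups. Its batch log2 difference was 0.13 in control and -0.12 in Lkb1 siRNA cultures. Dna2, a nuclease of long flaps, was at 3.09, 3.08, 4.44 and 3.77 FPKM, with a log2 fold change of 0.39 (edgeR adjusted p = 0.335, or 0.00554 with the replicate block).

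Among 33 tested genes of E2F, RB and the cyclin-dependent kinases, 0 passed for the siRNA, and 6 were lower and 1 higher in batch 2. Ccnd1, cyclin D1, which relays growth factor signals to RB, was at 171, 128, 142 and 116 FPKM, a batch log2 fold change of -0.37 (its SE was 0.0472, edgeR adjusted p = 1.96e-12). Ccnd2 (-0.22, edgeR adjusted p = 0.00022) and Ccnd3 (-0.20, edgeR adjusted p = 0.00114) were lower too, so all 3 D cyclins were lower in batch 2, as was Mybl2 (-0.20, edgeR adjusted p = 0.00292), a transcription factor made in S phase. The 1 higher gene was Cdkn1b, for the CDK inhibitor p27 (0.20, edgeR adjusted p = 0.00931). For the siRNA, the block gave 3 higher genes, Cdk2, E2f3 and Cdc25a, and 1 lower, Ccnd1.

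Cdk2, the kinase that the E cyclins activate, was at 36.3, 38.0, 45.9 and 44.7 FPKM, a log2 fold change of 0.24 (edgeR adjusted p = 0.26, or 0.00029 with the replicate block). E2f3 had 0.27 (edgeR adjusted p = 0.311, or 0.00035) and Cdc25a, the phosphatase that frees CDK2, 0.23 (edgeR adjusted p = 0.344, or 0.00398), while Ccnd1 had -0.24 (edgeR adjusted p = 0.548, or 3.29e-05). Of the 31 genes of G2 and mitosis, 0 passed for the siRNA, with or without the block, and 1, Birc5 (-0.16, edgeR adjusted p = 0.0218), was lower in batch 2. Their batch median was -0.04. The share lower in batch 2 was thus 33.3% of the 39 and 18.2% of the regulators. It was 9.3% of the other replication genes and 3.23% of the G2 and mitosis genes, beside 6.62% of all genes. These shares come from 1 fit. DESeq2 called 1 of the 39, 2 regulators, 0 other replication genes and 0 G2 and mitosis genes as lower. Without the siRNA term 0 passed in each list. No test between the lists was made.

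**Figure D4:**
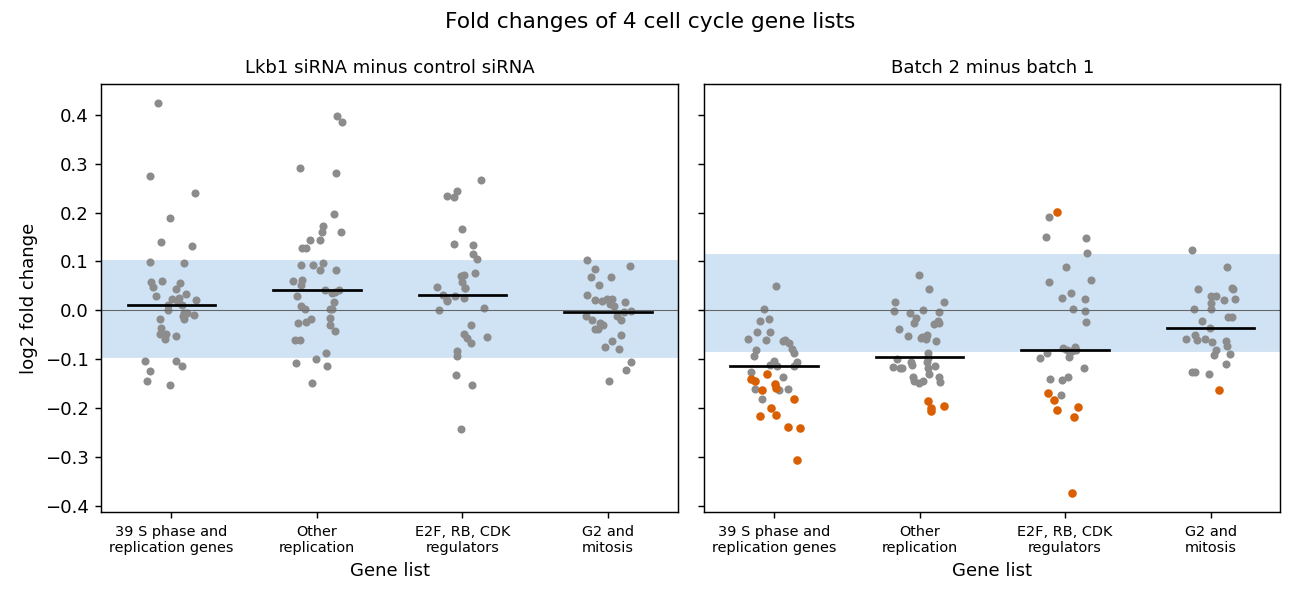
Log2 fold changes of single genes in 4 lists. The left panel is the siRNA (no replicate block), and the right panel is batch 2 minus batch 1 (siRNA as a term). The panels thus differ in model. With the replicate block 6 of the 39 passed for the siRNA, and without the siRNA term 0 passed between batches. Black lines are list medians, and orange marks an adjusted p under 0.05. The blue band spans the lower to the upper quartile of all genes tested. On the right the median of the 39 genes is -0.11 and that of the G2 and mitosis genes -0.04; on the left the 4 medians lie between 0.00 and 0.04.

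Markers of other cell types differed between the batches and, with the replicate block, between the siRNAs as well. Of 9 tested smooth muscle and fibroblast markers, 4 were higher in batch 2, all of them stromal: Col1a1 (445, 565, 368 and 444 FPKM; 0.29, edgeR adjusted p = 5.59e-10), Dcn (0.22, edgeR adjusted p = 0.000413), Col1a2 (0.20, edgeR adjusted p = 0.0014) and Pdgfra (0.25, edgeR adjusted p = 0.0264). The contractile gene Tagln was lower (-0.14, edgeR adjusted p = 0.0352). The summed level of that list was 1013 and 1130 FPKM in control and 837.9 and 911.8 FPKM in Lkb1 siRNA libraries. With the replicate block 5 of the 9 were lower after Lkb1 siRNA, led by Col1a1, Acta2 and Tagln. Of the neuron markers, the 2 tested were Tubb3 and Uchl1. Uchl1, at 16.9, 12.1, 19.8 and 16.8 FPKM, was lower in batch 2 (-0.37, edgeR adjusted p = 0.00893), and the list summed to between 19.79 and 31.45 FPKM, with Elavl3 at or near 0. Of 10 tested neural crest markers 1, Pax3, was higher in batch 2 (0.19, edgeR adjusted p = 0.0207). The melanocyte and cartilage list summed to between 10.7 and 13.19 FPKM, and 0 of its 5 tested genes passed between batches. For the siRNA 0 markers passed without the block, and with it 12 did, 4 higher and 8 lower. Besides the 5 above, the lower ones were Acan of cartilage (-0.61, edgeR adjusted p = 0.0573 without the block) and the neural crest genes Erbb3 (-0.65, edgeR adjusted p = 0.139) and Snai2 (-0.17, edgeR adjusted p = 0.503). The higher ones were Col2a1 (0.78, edgeR adjusted p = 0.181), Pax3 (0.19, edgeR adjusted p = 0.507), Tubb3 (0.32, edgeR adjusted p = 0.515) and Uchl1 (0.29, edgeR adjusted p = 0.555). DESeq2 without the block called Acan (adjusted p = 0.000523) and Acta2 (adjusted p = 0.00259). Whether these shifts in markers have a part in the batch and siRNA differences of the 39 genes was not tested.

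The transcript estimates add a last description. Of the 39 genes, 17 have a single transcript in the authors' table and 22 have several, and in 15 of those 22 the leading one took at least 80% of the level in every library. The widest shift was in a single library: in Clspn, whose gene level was almost even, the leading transcript XM_011240540 took 62.9%, 51.8%, 55.6% and 12.7%, and XM_011240541 took 0%, 0%, 0% and 30.2%. In E2f8, the transcript XM_006540554 took 22.8%, 36.8%, 48% and 67.6% of the E2f8 total, while NM_001360812 took 34.5%, 34.4%, 17.9% and 10.4%, so the Lkb1 siRNA libraries held more of the first and less of the second. In Fen1, XM_006526661 took 21% and 21.6% in control and 32.2% and 31.6% in Lkb1 siRNA libraries, with little difference between batches. In Mcm5, the minor transcript NM_001302540 took 15.5% and 14.2% in control and 9.22% and 9.72% in Lkb1 siRNA libraries. These shares are estimates from reads that fit several transcripts, and no test was run on them.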

How the data were processed

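Sequencing gave paired reads of 150 bp, per the labels' protocols. Per the submitters' processing notes, HISAT2 2.0.4, Bowtie2 2.2.5 and RSEM 1.2.8 were used with GRCm39, with no role or order stated; the sources used here do not give the annotation release. The gene table the authors deposited gives, per its file header, a read count, a normalised read count (a scaled signal, not used) and an FPKM per library. The deposited read counts are the authors' estimated counts (between 5.73 and 5.97% were not whole) and were rounded. The authors' deposited FPKM is relative to transcript length and library size and served for levels between genes. The deposited transcript table holds counts, FPKM and TPM, of which the authors' TPM was not used. Rows with a doubled decimal point were read with 1 point.

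Counts were tested with edgeR 4.0.16 in R 4.3.3 (quasi-likelihood F-test, TMM, robust estimation, and the tool's filter with a minimum count of 10) and adjusted by Benjamini-Hochberg over the 12222 genes tested, at a threshold of 0.05. The SE comes from the F statistic. The siRNA fit had no block and 2 residual degrees of freedom; the batch fit had siRNA as a term and 1. The labels state the batch, so replicate numbers pair the libraries: same-batch deviations from the group means correlated at 0.259 across genes. DESeq2 1.42.0 and limma 3.58.1 on log2(FPKM + 1) or log2(FPKM + 0.1) were alternatives. The edgeR fit was also run on simulated counts, as a check of the code. Those counts had the same spread for every gene and no batch difference in the siRNA run. They cannot show how well the p-values hold in these libraries. Nothing says that libraries come from independent cultures beyond number and batch, so p-values rest on the spread between these libraries alone. edgeR shares that spread across genes, so its p-values do not rest on the 2 or 1 residual degrees of freedom alone. In the batch fit Pcna, with nearly the same step in both siRNAs, had an SE of 0.0483. Mcm3, with unlike steps, had 0.0485. Such p-values are therefore no measure of the spread of a single gene. Which of a pair of transfection reagents a culture received is not given in the labels.

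The named genes were Stk11, every member, and from each other list up to 4 tested genes with the smallest p in either comparison. Cdkn1b, Rpa1 and the transcripts are outside that rule and were picked with their values in view. The markers Twist1, Ednrb, Ngfr, Gfap, Cnn1, Myh11 and Elavl3, named for their levels, are outside it too. The members and lists were chosen with earlier results of these data known. Promoters come from the RefSeq table of GRCm38.p6, which is not the build of the files. The coordinates printed with the promoter stretches are on GRCm38.p6, and no coordinates of whole genes are given. Some values of the glial marker list are not reported here.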

Additional observations from a re-analysis of the deposited data

How the results depend on the processing

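For the siRNA, the number of the 39 genes passing was 0 with every scaling, filter and tool run without the block, 6 with the replicate block, and 0 to 1 when 1 library was left out (1 without the batch 1 control library, Ccne2). All genes passing numbered 10, against 3 with library size alone, 45 when a single count in 1 library sufficed, 4 with a mean of at least 5 CPM, 49 with DESeq2, 0 with either limma fit, 1660 with the replicate block, 125 with DESeq2 and the block, and 66 to 253 with 1 library left out. The median of the 39 was 0.011, against 0.051 with limma on log2(FPKM + 0.1) and -0.062 to 0.105 with 1 library left out, so its sign is not fixed by these data. Library size alone gave 6 of the 39, none called, the other sign for the siRNA, and either limma fit 7. In the further lists, the replicate block gave 7 other replication genes, 4 regulators and 12 markers where 0 passed without it; DESeq2 with the block gave 1 regulator and 4 markers, and DESeq2 or the filter of a single count gave 2 markers. Leaving out 1 library gave 0 to 1 other replication genes, 0 to 1 regulators and 2 to 6 markers. The replicate block changed no call in the G2 and mitosis genes.

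Between batches, 13 of the 39 passed, against 8 with library size alone, 1 with DESeq2, 0 with either limma fit, 0 without the siRNA term and 0 to 1 with 1 library left out; the 1 was Ccne2, which is not of the 13. Rrm1 also did not pass with either other filter. The median was -0.114, and -0.104 to -0.164 with 1 library left out. All genes passing were 1579, against 115 with DESeq2, 98 and 152 with limma (pseudocounts 1 and 0.1), 0 without the siRNA term and 57 to 236 with 1 library left out. Library size alone gave 2 other replication genes (from 4) and 2 G2 and mitosis genes (from 1). DESeq2 gave 0 other replication genes, 2 regulators (from 7), 0 G2 and mitosis genes and 1 marker (from 7). Either limma fit gave 0, 1, 0 and 1, and the fit without the siRNA term 0 in each. With 1 library left out these were 0, 0 to 1, 0 and 1 to 3. Tagln ranged from -0.299 to 0.03 with 1 library left out, above 0 without the batch 1 control library. The cause of these changes was not tested. The batch fits with 1 library left out also had no siRNA term, so the library and the term changed together in them. A fit without 1 library leaves a lone library in 1 arm, which is assumed to vary like the others. With 2 libraries a group, the SE of the 39 siRNA log2 fold changes was 0.0666 to 0.156, which sets the smallest difference that could pass.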
